A study of Mus musculus with 10 samples.

Results

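The comparison described here sets 2 arrays of mouse embryonic stem cells transfected with an siRNA against Ino80 beside 2 arrays of the same cells transfected with an siRNA against Ino80c, 4 of the 10 arrays in the series. The arrays of each group were taken by the siRNA in their titles. The question it addresses is where loss of the catalytic subunit of the INO80 complex and loss of an accessory subunit left the cells with different RNA levels. All cells were J1, a mouse embryonic stem cell line, were in M15 medium from transfection on, and were collected at 96 hours (day 4). The other arrays carried cells treated with siRNAs against Ino80b or Ino80e and with the non-targeting control siRNA, NT, also 2 arrays each. The 2 arrays of a group are called biological replicates in the design text. The sources used here do not give the sequence or number of siRNAs per target. Effects of an siRNA on other transcripts and effects of losing its target therefore cannot be told apart.

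INO80 is a chromatin remodelling complex that uses the energy of ATP to slide nucleosomes and to exchange histones at promoters and replication forks. Ino80 encodes the ATPase on which the other subunits assemble, and Ino80c encodes a small subunit that sits with the actin-related proteins near the nucleosome. Embryonic stem cells keep a network of pluripotency factors active, and in serum cultures a few of them drift towards primitive endoderm, the extraembryonic lineage of the blastocyst that is specified by Gata6.

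Each gene was read by a 60-base probe on 1-colour Agilent arrays, and a level below is the log2 processed signal relative to the 75th percentile of its array. Signal was well above background at 79.0% of probes on Ino80 replicate 1 and 66.9% on Ino80 replicate 2, and the range over all arrays was 66.4% to 79.0%. No spot was saturated. Within a group, the correlation over genes of its arrays was between 0.987 and 0.993, and the median gap between replicates was 0.28 in Ino80 and 0.19 in Ino80c. All 10 embryonic stem cell markers were well above background on every array, with a summed signal of 422 to 508 times the 75th percentile in Ino80, 587 to 596 in Ino80c and 611 to 644 in NT, and none was called. Of the 8 fibroblast markers, Lum was not above background on any Ino80 or Ino80c array. Their sum was 1.45 to 1.89 in Ino80 against 1.68 to 1.71 in Ino80c. Of the 6 blood markers, Hba-x was not above background on any Ino80 or Ino80c array. Their sum was 0.285 to 0.436 in Ino80 against 0.608 to 0.683 in Ino80c. Between the groups, no member of either list was called, and the part of such cells in the results was not tested. The Ino80 arrays lay on slide 2 with the Ino80b arrays, the Ino80c arrays on slide 3 with the Ino80e arrays, and NT on slide 1. Slide and siRNA therefore cannot be told apart in the direct comparison or in any comparison of a knockdown with NT. Fewer cells of a type cannot be told apart from less RNA per cell.

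The probes behind 6 of the results below are shown because every level is the signal of 1 such stretch of sequence. They are written 5′ to 3′ and are those of the knocked-down ATPase gene, of 3 genes lower with Ino80 siRNA and of 2 genes higher with it.
Ino80: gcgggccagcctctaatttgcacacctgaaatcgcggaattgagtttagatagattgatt
Pdgfra: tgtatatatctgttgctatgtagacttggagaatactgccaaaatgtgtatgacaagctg
Cubn: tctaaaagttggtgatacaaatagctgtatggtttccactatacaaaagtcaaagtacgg
Rhox5: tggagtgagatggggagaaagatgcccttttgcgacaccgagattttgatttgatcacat
Otx2: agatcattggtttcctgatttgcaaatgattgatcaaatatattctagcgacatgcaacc
Krt8: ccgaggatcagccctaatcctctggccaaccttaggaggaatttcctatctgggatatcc
On the mouse build mm7 used by the array files, they lie at chr2:119114157-119114216 (minus strand), chr5:74616116-74616175 (plus), chr2:13215519-13215578 (minus), chr14:43989807-43989866 (minus) and chr15:101982940-101982999 (minus) for Ino80, Pdgfra, Cubn, Otx2 and Krt8. The files give no position for the Rhox5 probe, and which exon or UTR each probe falls in is not annotated in them.

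Each siRNA lowered its own target against the other knockdown. Ino80 RNA stood at 1.29 and 1.09 on the Ino80 siRNA arrays, against 2.53 and 2.60 on the Ino80c siRNA arrays. That is a log2 difference of -1.38 ± 0.13 (SE, n = 2 arrays each, limma adjusted p = 0.0102), or 38.5% of the level with Ino80c siRNA. Its other 2 probes gave -1.05 and -0.63. Ino80c RNA stood at 1.11 and 1.23 with Ino80 siRNA, against -1.25 and -1.45 with Ino80c siRNA (2.52 ± 0.16, adjusted p = 0.00512), so the Ino80c knockdown held 17.4% of the level seen with Ino80 siRNA. The other Ino80c probe gave 1.74. The arrays of the groups did not overlap for either target. In NT, Ino80 stood at 2.43 and 2.35 and Ino80c at 1.14 and 0.83, near their levels on the arrays of the other siRNA. The call of Ino80 ended without Ino80 replicate 2 (adjusted p = 0.0651) and without either Ino80c array (0.0896 and 0.083), and that of Ino80c without Ino80c replicate 2 (0.0512).

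No other gene of the complex was called between the knockdowns. Of 16 listed INO80 genes 15 were tested, and only Ino80 and Ino80c were called, with a list median of -0.02. Ino80b RNA, which encodes another accessory subunit, stood at -1.51 and -0.46 with Ino80 siRNA, against -2.41 and -2.37 with Ino80c siRNA. Its arrays did not overlap, but the difference of 1.40 did not pass (adjusted p = 0.13), with a 95% interval from 0.58 to 2.22. Ino80e RNA was at 4.74 and 4.61 with Ino80 siRNA and at 5.11 and 4.42 with Ino80c siRNA, groups that overlapped (adjusted p = 0.91, interval -0.74 to 0.56). Between these groups, Actl6a, Ruvbl1, Ruvbl2, Actr5 and Actr8, which encode the actin-related proteins and the AAA+ ring that surround the ATPase, differed by -0.25, -0.08, 0.11, -0.02 and -0.01.

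**Figure D1:**
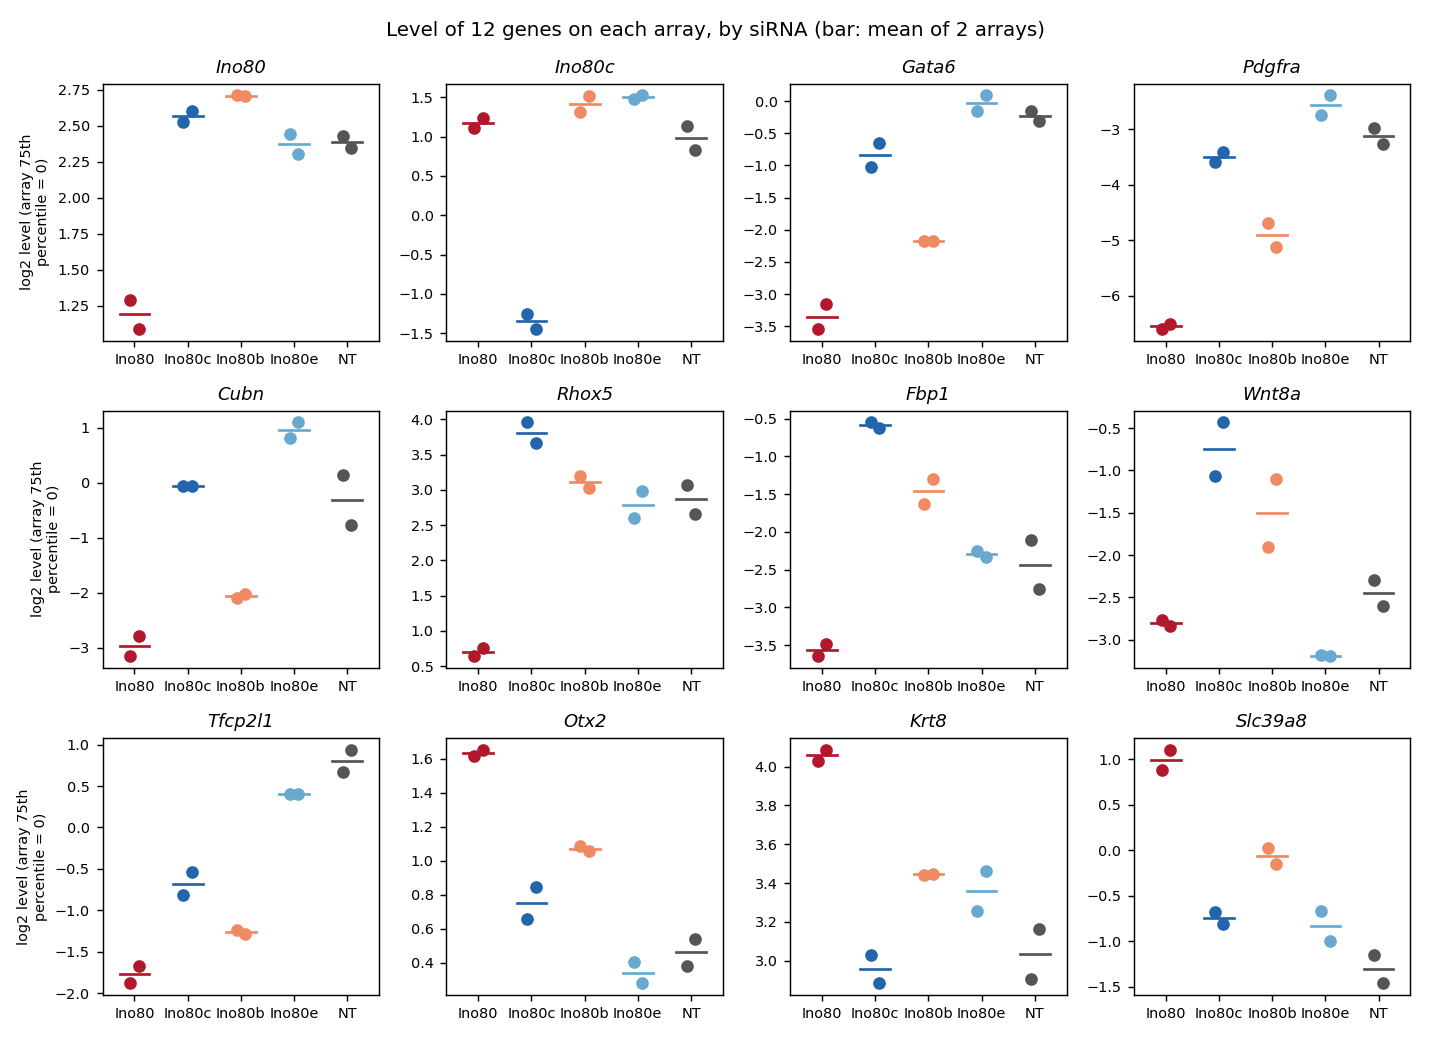
Log2 level of 12 genes on each of the 10 arrays (points) with the mean of the 2 arrays of a group (bars), by siRNA; 0 is the 75th percentile of the array. The 2 targets are low only on the arrays of their own siRNA. All 12 are among the 218 called genes. The Ino80 and Ino80c arrays do not overlap for any of the 218, and this also holds for 45.4% of all genes tested.

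Most of the genes that separated the knockdowns were lower with Ino80 siRNA. Of 20662 genes tested, 218 were called at an adjusted p under 0.05 (1.06% of those tested), 190 of them lower with Ino80 siRNA (0.92%) and 28 higher (0.136%). The arrays of the 2 groups did not overlap for any of the 218, but that also held for 45.4% of all genes tested. Among the 190, the median log2 difference was -1.34 and the range ran from -3.44 to -0.69, with 155 at least 2-fold lower (with those higher, 0.828% of genes). Among the 28, it was 1.10, from 0.69 to 2.78, with 16 at least 2-fold higher. The lower genes were dim, with a median level of -2.06 against -1.26 for all genes, and 8 of them were not well above background on either Ino80 array. Likewise, 4 of the 28 were not well above background on either Ino80c array. The median of all genes was -0.07.

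The number of calls rested on the Ino80c arrays and on the spread borrowed from the other groups. It was 4 without Ino80c replicate 1 and 0 without Ino80c replicate 2, 107 and 27 without Ino80 replicate 1 and 2, 84 without either Ino80b array, 85 without either Ino80e array, and 0 in a fit of the 4 arrays alone. In limma's fit without Ino80c replicate 2, 2332 genes still had an unadjusted p under 0.05, against 3119 with all arrays, and with the 4 arrays alone 2338 did. The split also moved with the processing. With median scaling 14.1% of the calls were higher, and with quantile normalization 19.8%. In the authors' deposited table, which keeps the background, 67.5% of 851 calls were higher against 12.8% here, although all 218 genes kept their sign there and 200 of them their call.

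Against NT, most of the lower genes were lower with Ino80 siRNA. In the 2 comparisons with NT, which lay alone on slide 1, slide and siRNA cannot be told apart. These comparisons share the NT arrays, so their values are given side by side only. They also reuse the Ino80 and Ino80c arrays on which the 218 genes were called, so falls with Ino80 siRNA among the 190 are partly built in, and the shares of all genes are no measure of chance for them. Of the 190 lower genes, 146 were also called lower in Ino80 minus NT (background 4.76% of genes called lower) and 21 in Ino80c minus NT (1.58%), while 34 were called higher in Ino80c minus NT (4.8% of genes called higher). Called with Ino80 siRNA only were 118, with Ino80c siRNA only 27, with both 28 and with neither 17, and that these sets differ was not tested. Their median difference from NT was -1.28 with Ino80 siRNA and 0.19 with Ino80c siRNA, and the NT mean lay nearer to the Ino80c mean for 150 of the 190. Of the 28 higher genes, 26 were called higher in Ino80 minus NT (7.5% of genes called higher) and 1 in Ino80c minus NT, with median differences of 1.09 and 0.08. In all, 2533 genes were called in Ino80 minus NT (12.3%) and 1319 in Ino80c minus NT (6.38%), and medians of all genes were 0.17 and 0.26.

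Genes of the primitive endoderm list had the lowest median of the 29 lists and the most calls. Of its 21 genes 19 were tested, and 7 were called lower with Ino80 siRNA and none higher, against 0.92% called lower among all genes. The list median was -0.69 against -0.07 for all genes, and 18 of the 19 members were below 0, against 12003 of all 20662 genes. The lists were chosen with earlier results of these data known, so the rank and these shares are no measure of chance. None of the 7 calls was kept without Ino80c replicate 1 or without Ino80c replicate 2. Gata6, the transcription factor that specifies this lineage, stood at -3.54 and -3.16 with Ino80 siRNA, against -1.03 and -0.65 with Ino80c siRNA and -0.15 and -0.31 in NT. It was 5.72-fold lower with Ino80 siRNA than with Ino80c siRNA (-2.52 ± 0.19, adjusted p = 0.00512). The Gata6 arrays of Ino80c siRNA lay between those of Ino80 siRNA and those of NT. The other 2 Gata6 probes gave -1.43 and -0.16, so the size of the difference depends on the probe.

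Pdgfra, the platelet-derived growth factor receptor that marks primitive endoderm cells, was not well above background on either Ino80 array, against levels of -3.58 and -3.41 with Ino80c siRNA and -2.97 and -3.27 in NT. It was at least 7.15-fold lower with Ino80 siRNA (adjusted p = 0.00512). For such a bound, the bright group's mean was compared with a floor on each array of the dim group. The floor was the lowest signal still well above background there, or the probe's own signal if higher. Such bounds hold for the main processing only: over the alternatives tried, the log2 difference of Pdgfra ran from -3.155 to -0.96. Sox7, a transcription factor of the lineage, stood at -4.71 and -4.49 with Ino80 siRNA and at -2.57 and -2.52 with Ino80c siRNA (-2.05 ± 0.25, adjusted p = 0.0177), but its other probe gave 0.16. Foxa2, a forkhead factor of endoderm, stood at -3.71 and -3.96 with Ino80 siRNA and at -1.72 and -2.09 with Ino80c siRNA (-1.93 ± 0.32, adjusted p = 0.0472). Sox17 and Gata4, further regulators of the lineage, differed by -1.51 (adjusted p = 0.0535) and -0.69 (adjusted p = 0.23) and were not called. The other probe of Sox17 gave -2.40 and that of Gata4 -1.215. Sox7, Foxa2, Dab2, Sox17 and Gata4 were picked for naming after their values had been seen.

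The same list holds the endocytic machinery with which visceral endoderm, a derivative of primitive endoderm, takes up nutrients. Cubn, which encodes the receptor cubilin, stood at -3.15 and -2.79 with Ino80 siRNA, against -0.06 and -0.07 with Ino80c siRNA and 0.14 and -0.76 in NT. It was 7.49-fold lower with Ino80 siRNA (-2.91 ± 0.29, adjusted p = 0.0116). Dab2, an adaptor that links such receptors to clathrin, stood at -1.15 and -1.10 with Ino80 siRNA and at -0.22 and 0.15 with Ino80c siRNA (-1.09 ± 0.17, adjusted p = 0.0388). The other Dab2 probe gave -0.66. Amn, the membrane partner of cubilin, differed by -0.86 and did not pass (adjusted p = 0.0676, interval -1.25 to -0.48). Lrp2, which encodes the neighbouring receptor megalin, stood at 2.68 and 2.30 with Ino80 siRNA and at 2.95 and 2.46 with Ino80c siRNA, which overlap (adjusted p = 0.807). Apoe, a secreted lipid carrier, differed by -0.42 (adjusted p = 0.46).

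The summed signal of the 5 endoderm markers Gata6, Gata4, Sox17, Sox7 and Afp was 0.253 to 0.268 times the 75th percentile with Ino80 siRNA, 0.931 to 1.14 with Ino80c siRNA and 1.48 to 1.67 in NT. Afp, a marker of later visceral endoderm, was not above background on any array. Of 14 basement membrane genes tested, the laminins and collagens that endoderm cells also secrete, none was called (median -0.23, smallest adjusted p 0.0638). Among them Lamc1, a laminin chain gene, stood at 4.40 and 4.46 with Ino80 siRNA and at 4.95 and 4.95 with Ino80c siRNA (-0.52 ± 0.12, adjusted p = 0.113). Agrn and Sparc, which encode the matrix proteins agrin and SPARC, differed by 0.24 (adjusted p = 0.671) and 0.43 (adjusted p = 0.444).

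Rhox5, an X-linked homeobox gene placed in both the primitive endoderm and the germline list, followed another pattern. It stood at 0.64 and 0.76 with Ino80 siRNA, against 3.96 and 3.67 with Ino80c siRNA, a fold of 8.65 (-3.11 ± 0.20, adjusted p = 0.00512). On the arrays of Ino80b, Ino80e and NT it lay between 2.60 and 3.20. It was thus lowest with Ino80 siRNA and highest with Ino80c siRNA, with differences from NT of -2.16 (adjusted p = 0.00314) and 0.95 (adjusted p = 0.0438). Of 35 germline and meiosis genes tested, Rhox5 and Piwil4 were called lower and none higher, against 0.92% of all genes called lower. The list median was -0.25 against -0.07 for all genes. Piwil4 encodes a PIWI protein that works with small RNAs against transposons. Piwil4 stood at -4.98 and -4.97 with Ino80 siRNA and at -2.67 and -2.17 with Ino80c siRNA (-2.56 ± 0.19, adjusted p = 0.00512), with NT between them at -3.26 and -3.31.

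A pair of naive pluripotency genes fell with Ino80 siRNA, and no core pluripotency gene was called. Of 22 naive genes tested, 2 were called lower and none higher, 20 were below 0, and the list median was -0.34. Of all genes, 0.92% were called lower and 12003 of 20662 were below 0, with a median of -0.07. Tfcp2l1, a transcription factor that sustains the naive state, stood at -1.88 and -1.67 with Ino80 siRNA, against -0.82 and -0.53 with Ino80c siRNA and 0.67 and 0.94 in NT. Both knockdowns were below NT, and the difference between them was -1.10 ± 0.16 (adjusted p = 0.0322). Gbx2, a homeobox factor that helps to keep cells naive, stood at 2.30 and 2.11 with Ino80 siRNA, against 3.37 and 3.46 with Ino80c siRNA and 3.38 and 3.39 in NT (-1.21 ± 0.13, adjusted p = 0.0141). For Gbx2 the Ino80c arrays lay beside the NT arrays.

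Uncalled members of the naive list with a high mean level over the 10 arrays include Klf2, Spp1 and Zfp42. Klf2, a Krüppel-like factor, stood at 6.51 and 6.53 with Ino80 siRNA and at 6.56 and 6.71 with Ino80c siRNA (adjusted p = 0.711, interval -0.41 to 0.17). Spp1, the gene of the secreted protein osteopontin, was at 4.01 and 4.55 with Ino80 siRNA and at 5.20 and 5.27 with Ino80c siRNA (-0.95 ± 0.25, adjusted p = 0.143). Zfp42, also known as Rex1, differed by -0.35 (adjusted p = 0.451). Nanog, picked for naming after its value had been seen, stood at 1.71 and 1.98 with Ino80 siRNA, at 2.05 and 2.24 with Ino80c siRNA and at 2.97 and 3.42 in NT. Between the knockdowns it differed by -0.30 (adjusted p = 0.545, interval -0.78 to 0.18). Of 13 core pluripotency genes none was called (median -0.19, smallest adjusted p 0.243), with members from -0.44 to 0.14. Dppa5a, an RNA-binding protein of stem cells, and Trim28, a corepressor of retroelements, differed by -0.44 and -0.19.

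Otx2, a homeobox factor of the formative and primed epiblast, was higher with Ino80 siRNA. It stood at 1.62 and 1.65 with Ino80 siRNA, against 0.66 and 0.84 with Ino80c siRNA and 0.38 and 0.54 in NT (0.88 ± 0.13, adjusted p = 0.0329). It was the only one called of 22 primed epiblast genes tested (median 0.14), where 0.136% of all genes were called higher. Pou3f1, another factor of this state, stood at 6.02 and 6.07 with Ino80 siRNA and at 6.10 and 5.83 with Ino80c siRNA, against 4.80 and 4.24 in NT. It was higher than NT by 1.52 (adjusted p = 0.00886) and 1.45 (adjusted p = 0.0249), and the groups of Ino80 and Ino80c arrays overlapped. Dnmt3b, a DNA methyltransferase gene, likewise differed by -0.01 between the knockdowns (interval -0.27 to 0.26), and Lefty1, an inhibitor of Nodal signalling, by -0.20 (interval -1.28 to 0.88).

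Genes of the 2-cell-like state, a rare state of embryonic stem cells that resembles the early embryo, were not separated by the test. Of 20 listed genes 11 were tested, and none was called between them (median 0.19, smallest adjusted p 0.271), with members from -0.37 to 0.65. Zscan4c, a marker of the state, stood at 2.47 and 2.00 with Ino80 siRNA, against 1.88 and 1.40 with Ino80c siRNA and -0.48 and -0.72 in NT. Its difference between the knockdowns was 0.60 ± 0.22 (adjusted p = 0.271, interval 0.08 to 1.12). Against the shared NT arrays, 8 of the 11 were called higher with Ino80 siRNA (7.5% of all genes) and 8 with Ino80c siRNA (4.8%). Dppa3, a maternal factor placed in this and the naive list, and Gm5662 differed by 0.35 and -0.06. Probes of the Zscan4 family can bind near-identical copies.

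Signalling genes were separated in a few places. Among all genes, 0.92% were called lower and 0.136% higher, with a median of -0.07. Dkk1, a secreted Wnt antagonist, stood at -5.21 and -5.15 with Ino80 siRNA, against -2.40 and -2.45 with Ino80c siRNA and -1.72 and -2.46 in NT (-2.76 ± 0.23, adjusted p = 0.00637), and its other probe gave -1.52. Wnt8a, a Wnt ligand of the early epiblast, stood at -2.76 and -2.83 with Ino80 siRNA, against -1.06 and -0.43 with Ino80c siRNA and -2.29 and -2.60 in NT (-2.05 ± 0.30, adjusted p = 0.0333). For Wnt8a, in contrast to Dkk1, the NT arrays lay beside those of Ino80 siRNA. These were the only 2 called of 28 genes of Wnt signalling and the primitive streak (median -0.08). Fgfr2, a receptor for fibroblast growth factors, was lower with Ino80 siRNA (-0.87 ± 0.13, adjusted p = 0.0377), the only one called of 23 genes of FGF and ERK signalling (median -0.26). Of 22 BMP and Id genes and 22 Nodal and TGF-beta genes none was called (smallest adjusted p 0.211 and 0.0608). Id1, a target of BMP signals, stood at 1.20 and 1.70 with Ino80 siRNA and at 2.83 and 2.32 with Ino80c siRNA (-1.12 ± 0.42, adjusted p = 0.272), Id2 differed by -0.45 and Dusp9, a phosphatase for ERK, by -0.12.

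Epithelial genes moved in both directions. Of 25 genes of trophectoderm and epithelium tested, 2 were called higher and 2 lower, against 0.136% and 0.92% of all genes. The list median was 0.13 against -0.07 for all genes. Krt8, a keratin of simple epithelia, stood at 4.03 and 4.09 with Ino80 siRNA, against 3.03 and 2.88 with Ino80c siRNA and 2.90 and 3.16 in NT (1.10 ± 0.14, adjusted p = 0.0231), and its other probe gave 1.11. Cldn7, a tight junction protein, stood at 4.01 and 4.07 with Ino80 siRNA and at 3.1 and 3.06 with Ino80c siRNA (0.96 ± 0.12, adjusted p = 0.0209). Lgals3, which encodes the lectin galectin-3, stood at 1.59 and 1.43 with Ino80 siRNA, against 2.91 and 2.41 with Ino80c siRNA and 4.26 and 4.18 in NT (-1.15 ± 0.18, adjusted p = 0.0408). The connexin gene Gjb5 stood at -1.29 and -1.28 with Ino80 siRNA, against -0.23 and -0.32 with Ino80c siRNA and 0.95 and 1.27 in NT (-1.0 ± 0.14, adjusted p = 0.0268). For Lgals3 and Gjb5 both knockdowns lay below NT, and Ino80 siRNA lay farther below it. Of 3 trophectoderm markers Elf5 was not above background on any Ino80 or Ino80c array. Their sum was 0.159 to 0.195 with Ino80 siRNA, against 0.164 to 0.201 with Ino80c siRNA.

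Of 26 neural genes tested, 3 were called lower with Ino80 siRNA and none higher: Neurod1, Stmn3 and, again, Gbx2. The list median was -0.17 against -0.07 for all genes, of which 0.92% were called lower. Neurod1, a proneural transcription factor, stood at -3.65 and -3.99 with Ino80 siRNA, against -1.96 and -1.89 with Ino80c siRNA (-1.90 ± 0.21, adjusted p = 0.0151). Stmn3, a regulator of microtubules, stood at -0.44 and -0.17 with Ino80 siRNA, against 1.03 and 0.88 with Ino80c siRNA and 2.32 and 2.19 in NT (-1.26 ± 0.14, adjusted p = 0.0151). The summed signal of 4 neural markers was 9.78 to 13 times the 75th percentile with Ino80 siRNA, 7.87 to 8.23 with Ino80c siRNA and 7.38 to 8.81 in NT, with none called, and its part in these results was not tested. Hox genes had the second lowest list median, -0.39, but none of 24 was called (smallest adjusted p 0.0553). Of these, Hoxa7 and Hoxc5 differed by 0.03 and -0.47.

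Growth control genes were separated in small numbers. Of 30 p53 targets tested, 3 were called lower with Ino80 siRNA and none higher, 24 were below 0, and the median was -0.32, where 0.92% of all genes were called lower and 12003 of 20662 were below 0. Trp53inp1, a stress protein that acts with p53, stood at 3.29 and 3.42 with Ino80 siRNA, against 4.31 and 4.40 with Ino80c siRNA and 3.80 and 3.58 in NT (-1.01 ± 0.14, adjusted p = 0.0258). Fas, a death receptor, was at -3.71 on both Ino80 arrays, against -2.79 and -2.82 with Ino80c siRNA and -3.81 and -3.83 in NT (-0.91 ± 0.11, adjusted p = 0.0203). Btg2, a gene that restrains proliferation, differed by -0.82 ± 0.14 (adjusted p = 0.0463). For Fas the NT arrays lay beside the Ino80 arrays, and for Trp53inp1 between the groups. Of 40 cell cycle and replication genes, Cdkn1c and Rb1 were called lower and none higher, against 0.92% of all genes called lower. The list median was -0.09 against -0.07 for all genes. Cdkn1c is an imprinted inhibitor of cyclin-dependent kinases, and Rb1 is the retinoblastoma gene. Cdkn1c stood at 3.89 and 3.96 with Ino80 siRNA, against 5.14 and 5.10 with Ino80c siRNA and 4.42 and 4.11 in NT (-1.20 ± 0.16, adjusted p = 0.0233), and Rb1 differed by -0.86 ± 0.14 (adjusted p = 0.0472). Cdkn1c was also the only one called of 27 imprinted genes.

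Oas1a, a sensor of double-stranded RNA, was called lower (-1.28 ± 0.20, adjusted p = 0.0388). It was the only one called of 32 interferon genes (median 0.12), where 0.92% of all genes were called lower. No member was called in the lists of the integrated stress response (33 genes, smallest adjusted p 0.195), glycolysis and hypoxia (31, 0.173), DNA methylation (17, 0.056), Polycomb (29, 0.0969), histones (22, 0.286), ribosomal proteins (76, 0.269), other remodelling complexes (41, 0.145), fibroblast and feeder cells (28, 0.0738) and blood (12, 0.056). Of 30 cholesterol synthesis genes none was called either (smallest adjusted p 0.119). Their median, 0.35, was the highest of the 29 lists, and 3 of the 30 lay below 0.

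**Figure D2:**
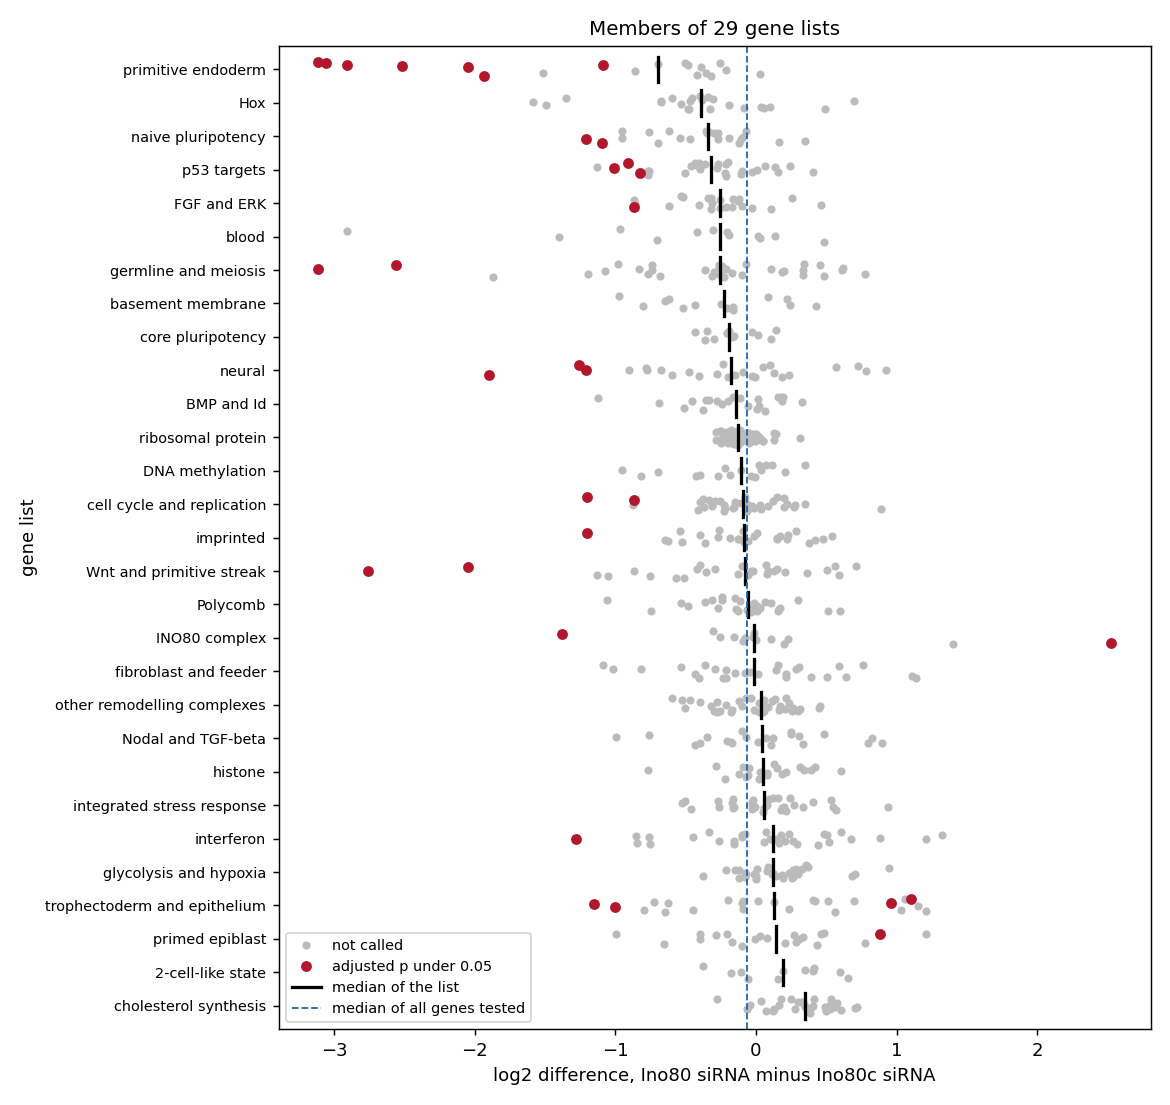
Log2 difference, Ino80 siRNA minus Ino80c siRNA, of every tested member of 29 gene lists (points, red where called), with the median of each list (black bars) and of all genes tested (dashed line at -0.07); lists run down the page from the lowest median. The primitive endoderm list is at the top with 7 members called lower and a median of -0.69, and cholesterol synthesis is at the bottom with a median of 0.35.

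The largest differences outside the lists were mixed in function. Of the 12 largest falls with a clean gene name, those not yet given were Olfr533, Plppr1, Fbp1, Pkhd1, Tfec, Dhrs9 and Abcb1a. Fbp1, the gluconeogenic enzyme fructose-1,6-bisphosphatase, stood at -3.64 and -3.49 with Ino80 siRNA, against -0.55 and -0.62 with Ino80c siRNA and -2.10 and -2.76 in NT (-2.98 ± 0.23, adjusted p = 0.00512). Here NT lay between the knockdowns, Ino80 below it and Ino80c above it. Tfec, a transcription factor of the family that controls lysosomal genes, stood at -6.52 and -6.39 with Ino80 siRNA, where 1 of 2 arrays was well above background, and at -3.82 and -3.62 with Ino80c siRNA (-2.74 ± 0.30, adjusted p = 0.0151). Pkhd1, the gene of the ciliary protein fibrocystin, differed by -2.89 ± 0.36 (adjusted p = 0.0199), while its other probe gave -0.61. Abcb1a, an efflux transporter, stood at -5.74 and -6.36 with Ino80 siRNA, 1 of 2 arrays well above background, against -3.37 and -3.36 with Ino80c siRNA and -2.66 and -2.96 in NT (-2.69 ± 0.23, adjusted p = 0.00637).

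The other 3 were not well above background on either Ino80 array. Olfr533, an olfactory receptor gene, stood at -4.84 and -5.25 with Ino80c siRNA and was not well above background on any of the other 8 arrays. It was at least 2.44-fold lower with Ino80 siRNA (adjusted p = 0.00514). Dhrs9, a retinol dehydrogenase gene, was likewise above background on the Ino80c arrays only and was at least 1.70-fold lower with Ino80 siRNA (adjusted p = 0.00512). Without the filter on dim probes, Dhrs9 is read by another probe, which had not passed the filter and gave 0.23 ± 1.03 (adjusted p = 0.953). For Olfr533 and Dhrs9 it was thus the Ino80c arrays that stood apart from NT. Both passed the filter on dim probes through the Ino80c arrays only, where they are high, so their calls partly follow from the filter. Plppr1, of a family of membrane proteins related to lipid phosphatases, stood at -5.25 and -5.00 with Ino80c siRNA and at -4.95 and -5.49 in NT, and was at least 2.30-fold lower with Ino80 siRNA (adjusted p = 0.02).

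Higher with Ino80 siRNA, after Ino80c itself, were genes of transport, the cytoskeleton and chromatin, among others. Slc39a8, a zinc and manganese importer, stood at 0.89 and 1.11 with Ino80 siRNA, against -0.68 and -0.81 with Ino80c siRNA and -1.15 and -1.46 in NT (1.74 ± 0.18, adjusted p = 0.0133), with 1.30 at its other probe. Stmn4, of the same stathmin family as Stmn3, stood at 1.43 and 1.87 with Ino80 siRNA, against 0.15 and -0.10 with Ino80c siRNA and -0.17 and -0.55 in NT (1.62 ± 0.20, adjusted p = 0.0192). The stathmin genes Stmn4 and Stmn3 thus moved in opposite directions. Hdac7, a class IIa histone deacetylase gene, differed by 1.14 ± 0.16 (adjusted p = 0.0264), with 0.96 at its other probe.

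Lrp8, a receptor for reelin, and Dennd1c, an activator of a Rab GTPase, differed by 1.24 and 1.20. Insl3, a peptide hormone gene, Mcoln3, an ion channel of endosomes, and Mttp, which loads lipid onto lipoproteins, differed by 1.09, 1.08 and 0.99. These 5 had an adjusted p between 0.0223 and 0.0499, and, as for all 218 called genes, the arrays of the groups did not overlap. Lce1d is a gene of the cornified envelope of skin. It stood at -4.53 and -5.22 with Ino80 siRNA and was not well above background on the other 8 arrays. It was at least 2.24-fold higher than with Ino80c siRNA (adjusted p = 0.0258). Lce1d passed the filter on dim probes through the Ino80 arrays only, so its call partly follows from the filter.

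**Figure D3:**
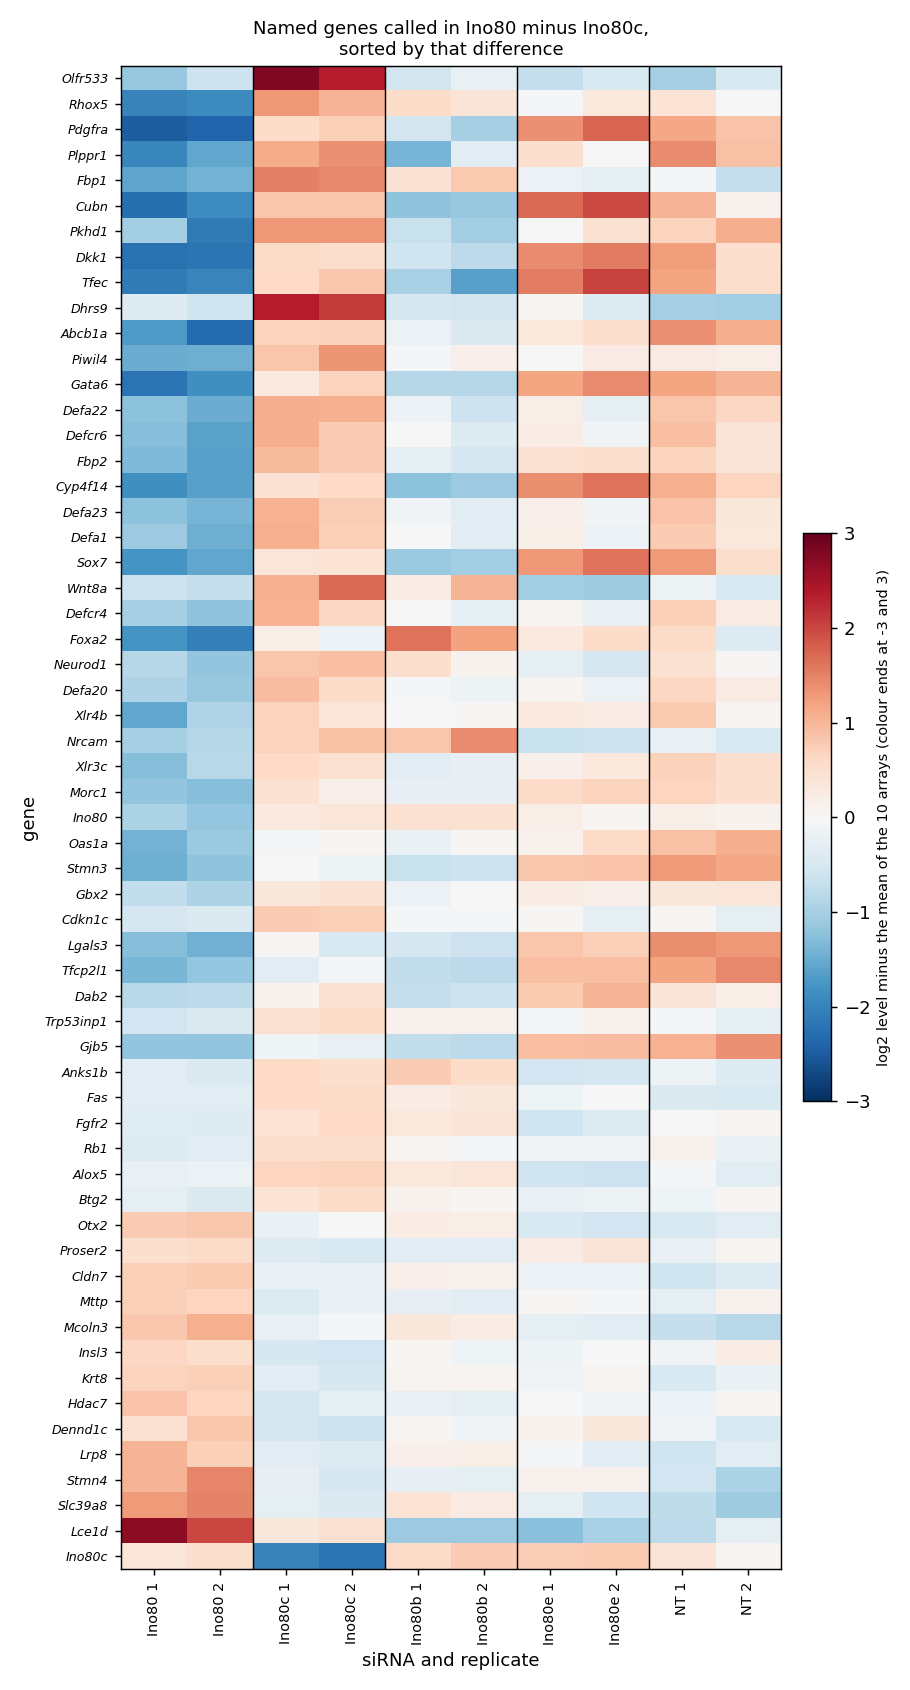
Log2 level minus the mean of the 10 arrays for 59 genes that were called and named by the rule or after their values were seen, one row per gene sorted by the difference between Ino80 and Ino80c siRNA, one column per array; blue is low and red is high, and colours end at -3 and 3. The 2 Ino80 columns are the lowest of the 10 for most of the lower genes, while Olfr533 and Dhrs9 are high in the 2 Ino80c columns.

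A second pair of knockdowns, Ino80b and Ino80e, was hybridised on the same 2 slides, and it shows how far other arrays of these slides differed in the same genes. In Ino80b minus Ino80e, 143 genes were called (0.692%), 51 higher (0.247%) and 92 lower (0.445%). Of the 218 genes, 33 were called with the same sign there, all of them lower, and 6 with the opposite sign, so that 39 genes made up 17.9% of the first list and 27.3% of the second. Of the 190 lower genes 141 had the same sign in the second pair, with a median of -0.37. In that pair 11809 of all 20662 genes were below 0, with a median of -0.05. Across all genes, which are not independent replicates, the 2 sets of differences had r = 0.218. The pairs share no array, but they share the slides and the spread estimate.

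Several endoderm genes were among the 33. Cubn stood at -2.10 and -2.03 with Ino80b siRNA, against 0.82 and 1.10 with Ino80e siRNA (-3.02, adjusted p = 0.0118). Gata6 stood at -2.17 and -2.18 with Ino80b siRNA, against -0.15 and 0.09 with Ino80e siRNA (-2.15, adjusted p = 0.0118). Pdgfra differed by -2.33 in that pair, Sox7 by -2.55, Dab2 by -1.59, Dkk1 by -2.17 and Tfec by -3.09. Of the 19 primitive endoderm genes tested, 6 were called lower and none higher in Ino80b minus Ino80e, with 15 below 0 and a median of -0.61. In the same comparison 0.445% of all genes were called lower and 11809 of 20662 were below 0, with a median of -0.05. Dkk1 and Tfec are not in the primitive endoderm list. Cyp4f14, a cytochrome P450 that hydroxylates lipids, was another of the 33, at -5.02 and -4.82 with Ino80 siRNA, against -2.74 and -2.59 with Ino80c siRNA, a difference of -2.25, and it differed by -2.66 in the second pair. Tfcp2l1 (-1.66), Stmn3 (-1.48), Gjb5 (-1.68) and Lgals3 (-1.34) were also lower in Ino80b minus Ino80e, whereas Rhox5 (0.33, adjusted p = 0.52) and Foxa2 (1.00, adjusted p = 0.229) were not called there.

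Within a slide, Ino80 minus Ino80b gave 14 calls (0.0678%) and Ino80c minus Ino80e 7 (0.0339%). The difference of these 2 differences, in which an effect of the slide common to both its groups cancels, was tested in the same fit and gave 43 calls (0.208%), 40 lower (0.194%) and 3 higher (0.0145%). Of the 218 genes 29 were among them, 26 lower and 3 higher. The contrast contains the direct comparison as one of its terms, so a shared sign is largely fixed by construction and is not read as support. Both targets were, at -1.71 for Ino80 (adjusted p = 0.0282) and 2.61 for Ino80c (adjusted p = 0.024). This contrast mixes 4 knockdowns, so a value in it does not belong to Ino80 and Ino80c alone. Its count was 0 without any 1 array of Ino80b, Ino80c or Ino80e, where limma's unadjusted p was under 0.05 for 1218 to 1771 genes. It was between 2 and 17 without an array of Ino80 or NT, and 0 without the filter on dim probes, with 1811 genes at an unadjusted p under 0.05.

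Among the 26 of the 218 genes called lower in this contrast, Fbp1 fell most, by 3.81 on the log2 scale (adjusted p = 0.024). It stood at -1.63 and -1.29 with Ino80b siRNA and at -2.25 and -2.33 with Ino80e siRNA. Wnt8a followed at -3.74 (adjusted p = 0.0282), with -1.90 and -1.11 with Ino80b siRNA, against -3.18 and -3.19 with Ino80e siRNA. Olfr533 (-3.62), Nrcam (-3.45) and Rhox5 (-3.44) were the other 3 of the 5 largest falls among these 26, with Nrcam encoding a neuronal adhesion protein. For Olfr533, and for Dhrs9 below, the value rests on 3 groups that were not above background. Proser2 was the other named gene called higher in this contrast besides Ino80c, at 1.58 (adjusted p = 0.0445). It stood at -0.53 and -0.43 with Ino80 siRNA and at -1.38 and -1.44 with Ino80c siRNA. Neurod1 (-2.57), Piwil4 (-2.48), Dhrs9 (-2.36) and Fas (-1.25) were also called, whereas Gata6 (-0.37, adjusted p = 0.79), Cubn (0.11, adjusted p = 0.971) and Pdgfra (-0.73, adjusted p = 0.523) were not.

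**Figure D4:**
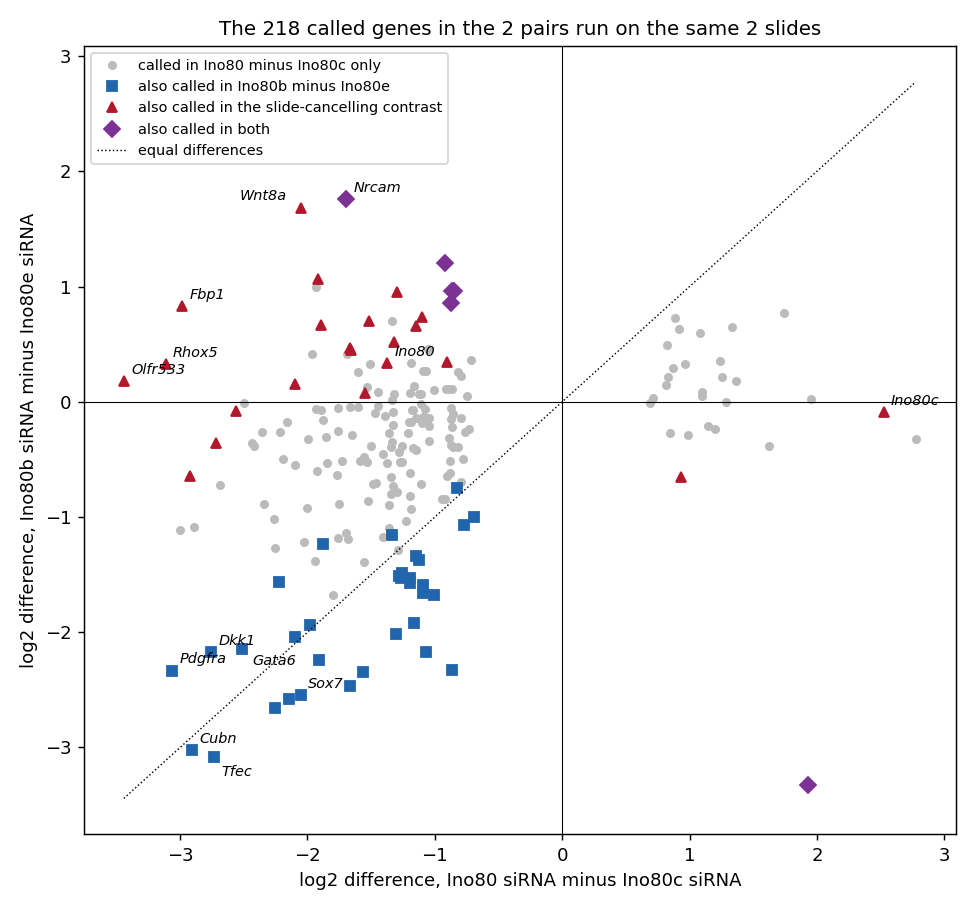
Log2 difference of the 218 called genes in Ino80 minus Ino80c siRNA (horizontal) and in Ino80b minus Ino80e siRNA (vertical), the pairs of knockdowns run on the same 2 slides; symbols show which genes are also called in the second pair or in the slide-cancelling contrast, and the dotted line marks equal differences. Gata6, Pdgfra, Cubn, Sox7, Dkk1 and Tfec lie near the dotted line at the lower left, while Rhox5, Fbp1 and Wnt8a lie above the horizontal axis.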

How the data were processed

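RNA of 10 J1 cultures was labelled and hybridised to 1-colour Agilent 4x44K arrays. The authors deposited spot intensity values, background-subtracted and detrended within each array by Feature Extraction 9.5.3.1, per the file headers. They also deposited a table of log2 values, which on comparison were the log2 mean signal plus 1 constant per array, with no background subtraction (column medians 6.76 to 6.87). The sources used here do not say where the constants come from. The labels name Cy5 as the dye, while the files hold 1 channel, recorded as green.

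Control spots and flagged spots were left out, and log2 intensity minus the array's 75th percentile was used, averaged over the remaining spots of a probe. Probes with no unflagged spot on some array (31 of 41174) were dropped. Of 41143 probes, 22932 were named through RefSeq and 18211 kept the design's name. Kept were 29586 probes that both arrays of some group measured well above background, and each of 20662 genes was read by its brightest kept probe. limma 3.58.1 in R 4.3.3 fitted all 10 arrays by group, with 5 residual degrees of freedom, 2-sided moderated tests and Benjamini-Hochberg adjustment over all genes at 0.05. Values after ± are standard errors of the fit and intervals are 95%. Tables and figures were made with Python 3.11.15, numpy 2.4.6, pandas 2.3.3 and matplotlib 3.10.9. The fit was tested on simulated data with 200 changed genes. The number of arrays limits the precision.

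Genes were named by rule: the 4 targets, the 12 largest calls each way with a gene symbol, up to 4 called members each way of a list, up to 3 bright uncalled members of 8 lists, and the largest calls shared with the slide-cancelling contrast or the other pair (5 each way). Some genes that the rule names are not reported here. The comparison, members and lists were chosen with earlier results of these data known. The alternatives tried were background correction (normexp, offset 50), quantile and median scaling, the deposited table, other filters, averaged probes, another prior, array weights, only the arrays compared, a replicate block and leaving out each array.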

Additional observations from a re-analysis of the deposited data

Results flagged for a closer look

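For 6 genes the difference between Ino80 and Ino80c siRNA and that between Ino80b and Ino80e siRNA were called with opposite signs. Both pairs lay on the same 2 slides. The genes were picked by these calls and by a call of the difference between the differences in limma's fit. That contrast is built from the same arrays, so its adjusted p is largely fixed by the choice and is not separate support. Nrcam, a neuronal adhesion gene, was lower by -1.70 in the first pair and higher by 1.76 in the second, a difference of -3.45 ± 0.29 (SE, adjusted p = 0.024). Fgfr2 had -0.87 and 0.86, a difference of -1.73 ± 0.19 (adjusted p = 0.0282). Alox5, the gene of a lipoxygenase, had -0.86 and 0.96, a difference of -1.82 ± 0.19 (adjusted p = 0.0282). Its arrays stood at -0.91 and -0.86 with Ino80 siRNA and -0.03 and -0.02 with Ino80c siRNA, and at -0.36 and -0.31 with Ino80b siRNA and -1.29 and -1.30 with Ino80e siRNA. In these 3 genes Ino80 and Ino80e were the low knockdowns and Ino80c and Ino80b the high ones.

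Anks1b, a gene of synaptic scaffold proteins, had -0.92 and 1.20, a difference of -2.12 ± 0.20 (adjusted p = 0.0282), with 1 of 2 Ino80 arrays and no Ino80e array well above background. LOC620807, an unnamed locus, had -0.85 and 0.96, a difference of -1.81 ± 0.16 (adjusted p = 0.0257). The transcript AK086512 ran the other way, at 1.93 and -3.32, a difference of 5.25 ± 0.41 (adjusted p = 0.024). It stood at -6.56 and -5.57 with Ino80 siRNA, where 1 array was well above background, and at -4.52 and -4.67 with Ino80e siRNA, and was not well above background with Ino80c, Ino80b or NT siRNA. AK086512 thus passed the filter on dim probes through the Ino80e arrays only. LOC620807 and AK086512 were named after their values had been seen.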

How the results depend on the processing

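With normexp, the deposited table, no filter on dim probes, a filter on all arrays, a trended robust prior, only the arrays compared and the replicate block, the calls were 759, 851, 86, 352, 461, 0 and 726 in Ino80 minus Ino80c (main 218), 476, 413, 46, 311, 371, 0 and 841 in Ino80b minus Ino80e (143), and 145, 136, 0, 91, 117, 17 and 242 in the slide-cancelling contrast (43). With array weights the last 2 were 720 and 84. Ino80 minus NT (2533) gave 3818 with normexp, 1297 with no filter, 681 with array weights, 0 with only the arrays compared and 4889 with the replicate block. Ino80c minus NT (1319) gave 4402 with normexp, 771 with median scaling, 2220 in the deposited table, 146 with no filter, 2272 with the filter on all arrays, 2583 with the trended prior, 129 with weights, 0 with only the arrays compared and 3739 with the block. With only the arrays compared, limma's unadjusted p was under 0.05 for 2338 genes in Ino80 minus Ino80c, 3711 in Ino80b minus Ino80e, 3859 in Ino80 minus NT and 4707 in Ino80c minus NT. In that fit the targets kept -1.38 (Ino80, adjusted p = 0.194) and 2.52 (Ino80c, adjusted p = 0.105). Leaving out 1 array gave 0 to 188, 0 to 139, 0 to 17, 560 to 3308 and 0 to 3204 calls in these 5 contrasts, -1.48 to -1.28 for Ino80 RNA and 2.43 to 2.62 for Ino80c RNA. Of the 218 genes, all kept their sign under each alternative that measured them, except 1 each with normexp and with no filter. Calls in Ino80 minus Ino80c were 12.8% higher, against 27.1% with the block and 67.5% in the deposited table. Calls of Ino80c minus NT were 75.2% higher, against 54.1% with quantile normalization, 55.8% with median scaling and 27.8% in the deposited table. Over the 10 pairs of groups, deviations of same-numbered arrays correlated with r from 0.00418 (Ino80 and Ino80c) to 0.321, above 0.1 in 8, so part of the spread follows the number. The labels give no shared source and not every pair passes 0.1, so the replicate block is only an alternative. The signs of small differences turned in the deposited table for Ino80e (0.12), Trim28 (0.013), Klf2 (0.12), Lefty1 (0.000921), Dnmt3b (0.21), Gm5662 (0.14) and Dusp9 (0.081), for Dnmt3b with normexp (0.040), quantile (0.060) and median scaling (0.035), for Gm5662 with quantile normalization (0.0014) and for Lrp2 with averaged probes (0.050). The called fall of Dhrs9 (-2.72) turned with no filter, which takes another probe (0.23). Over the fits without 1 array, the range was -0.44 to 0.26 for Ino80e, -0.41 to 0.018 for Trim28, -0.67 to 0.26 for Lefty1, -0.056 to 0.043 for Dnmt3b, -0.46 to 0.034 for Lrp2, -0.18 to 0.066 for Gm5662, -0.061 to 0.21 for Pou3f1, -0.019 to 0.72 for Dppa3 and -0.25 to 0.31 for Hoxa7. Apart from the filters and the fits on fewer arrays, whose construction changes what is tested, the cause was not tested. Dim probes limit the sizes given as bounds, which hold for the main processing only. Over the alternatives, log2 differences ran from -3.155 to -0.96 for Pdgfra, -3.69 to -0.60 for Olfr533 and -3.21 to -0.41 for Plppr1. For Dhrs9 they ran from -2.84 to 0.23, and for Lce1d from 0.13 to 2.31.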

Other observations

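Genes outside the lists, chosen after their values were seen, include a set of alpha-defensins, the antimicrobial peptides of the gut. Of 11 defensin genes tested, 6 were called lower with Ino80 siRNA and none higher, from -2.44 to -1.76, while the others lay between -0.26 and 0.50. Of all genes, 0.92% were called lower. Defa1 stood at -2.08 and -2.46 with Ino80 siRNA, against 0.07 and -0.29 with Ino80c siRNA and -0.24 and -0.69 in NT (-2.16 ± 0.25, adjusted p = 0.0155). Readings of Defa1, Defa23 and Defcr6 are not independent, since their probes overlap in sequence. The probes of Defa20, Defa22 and Defcr4 were not compared, so how far their readings are independent is not known. The longest run shared by the first 3 probes, 14 bases, is in capitals.
Defa1: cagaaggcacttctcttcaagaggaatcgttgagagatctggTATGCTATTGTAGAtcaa
Defa23: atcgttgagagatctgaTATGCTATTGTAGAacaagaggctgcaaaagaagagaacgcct
Defcr6: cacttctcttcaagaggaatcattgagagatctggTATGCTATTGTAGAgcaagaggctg
Where they overlap, the probes of Defa1 and Defcr6 are identical at 51 of 53 bases, those of Defa1 and Defa23 at 33 of 35 and those of Defa23 and Defcr6 at 39 of 42. Signal of 1 transcript on several of these probes cannot be told apart from several transcripts.

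Fbp2, the muscle form of fructose-1,6-bisphosphatase, fell together with Fbp1. It stood at -4.59 and -4.89 with Ino80 siRNA, against -2.30 and -2.50 with Ino80c siRNA and -2.59 and -2.86 in NT (-2.35 ± 0.17, adjusted p = 0.00512). Morc1, which silences transposons in male germ cells, stood at 1.61 and 1.51 with Ino80 siRNA, against 3.23 and 2.93 with Ino80c siRNA and 3.43 and 3.27 in NT (-1.52 ± 0.14, adjusted p = 0.0102). For both genes the Ino80c arrays lay nearer to NT than the Ino80 arrays did. The X-linked Xlr3c and Xlr4b differed by -1.58 (adjusted p = 0.0151) and -1.76 (adjusted p = 0.044), and another Xlr4b probe gave 0.30. Xlr genes have near-identical copies, so these values are uncertain.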
